A study of Homo sapiens with 4 samples.

Results

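The comparison described here is DAXX knockdown against control siRNA in NCI-H727, a cell line of a bronchial neuroendocrine tumour. It rests on 2 of the 4 arrays of the series, the array titled DAXX-KD NCI-H727 and the array titled DAXX-NC NCI-H727, and on the difference between them in 14637 genes. Total RNA was hybridised to a 1-colour Affymetrix expression array after amplification and biotin labelling. Cells of both groups received siRNA at 50 nM by electroporation: the DAXX-KD cells siRNA against DAXX and the DAXX-NC cells a universal negative control siRNA. Whether the 2 DAXX siRNAs named in the labels were given together is not stated. The other 2 arrays are the same pair of treatments in QGP1, a pancreatic neuroendocrine tumour line.

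Values are log2 expression values from RMA, which subtracts background, makes the arrays' distributions alike and summarises the probes of a probe set into 1 value. A difference of 1 on this scale is 2-fold, and all differences are DAXX-KD minus DAXX-NC. Where a gene has several probe sets, the brightest over the 4 arrays stands for it. The filter level, 4.85, is the 40th percentile over all probe sets, and genes with a lower mean were left out. There was 1 array per treatment, so no difference has a replicate check and none carries a p-value. The arrays' medians lay between 5.31 and 5.36. The 75th percentile was 7.38 in the DAXX-NC array of NCI-H727 and 7.27 in the DAXX-KD array. Fewer cells of a kind and less RNA per cell cannot be told apart in such bulk RNA.

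The labels are at odds over the line. The titles name NCI-H727, but the same samples give QGP1 as their source, and every sample is described as QGP1 cells high in aldehyde dehydrogenase (ALDH). The names used here are those of the titles. The fixed markers did not settle the matter. NKX2-1, the lung and thyroid transcription factor, stood at 3.35 and 3.23 in the arrays titled NCI-H727, under the filter level, and at 8.77 and 8.38 in those titled QGP1. GRP, a peptide hormone of lung neuroendocrine cells, stood at 5.37 and 4.12 in NCI-H727 and at 12.80 and 11.76 in QGP1. The islet factor NKX2-2 stood at 9.17 and 9.25 in NCI-H727 and at 4.80 and 5.93 in QGP1. Other markers went the other way. The islet factor ISL1 stood at 8.82 and 8.94 in NCI-H727 and at 9.61 and 9.46 in QGP1. PAX6 stood at 5.12 and 5.67 in NCI-H727 and at 6.64 and 6.77 in QGP1. SOX9, of the pancreatic exocrine and ductal markers, stood at 4.77 and 5.02 in NCI-H727 and at 9.56 and 9.87 in QGP1. SST, somatostatin, was lower in NCI-H727, at 11.87 and 11.80 against 13.83 and 13.07. The arrays titled NCI-H727 were neuroendocrine and epithelial by their markers, with CALCA at 13.54 and 13.46, CHGA at 12.17 and 12.27, INSM1 at 11.39 in both and EPCAM at 13.32 and 13.27. Of the leukocyte markers PTPRC stood at 3.36 and 3.68 and LYZ at 8.80 and 8.90, and 5 of the 6 measured reached the filter level on an NCI-H727 array. Of the fibroblast and endothelial markers CDH5 stood at 4.08 and 4.47 and KDR at 6.98 and 7.17, and 6 of 10 reached it.

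DAXX is a histone chaperone. Together with the chromatin remodeller ATRX it places the histone variant H3.3 at telomeres and at silent chromatin, and it gathers in nuclear bodies built on PML. DAXX and ATRX are among the genes most often mutated in pancreatic neuroendocrine tumours, where their loss goes with lengthening of telomeres without telomerase. DAXX itself stood at 7.35 in the DAXX-NC array of NCI-H727 and at 6.14 in the DAXX-KD array, 2.31-fold lower, so 43.3% of the signal was left. Its other probe set stood at 7.02 and 6.18. The corresponding differences in QGP1 were -1.96 and -2.14, so the NCI-H727 arrays differed less in DAXX than the QGP1 arrays. Among DAXX partners and histone H3.3 chaperones DAXX was the 1 of 23 genes at least 2-fold lower (all genes: 1.33%), and 0 were at least 2-fold higher (all genes: 0.178%). ATRX, at 8.34 and 7.74, was the other member at least 1.5-fold lower (all genes: 4.96%), and its 2 other probe sets differed by -0.84 and -0.32. Of 24 genes of H3K9 methylation and HP1, the marks and readers of silent chromatin, 0 were past 1.5-fold in either direction (all genes: 6.57%). Of 38 genes of telomere maintenance and DNA repair, 0 were past 1.5-fold.

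Most of the genes that differed by 2-fold or more were lower in the DAXX-KD array. Past 2-fold the DAXX-KD value was the lower for 194 (1.33%) of the 14637 genes and the higher for 26 (0.178%), so 88.2% of the genes past 2-fold were lower. With each array centred on its median over these genes the counts were 135 lower and 38 higher, a share of 78.0%. At 1.5-fold there were 726 lower genes (4.96%) and 235 higher (1.61%), or 6.57% in either direction. Of the lower genes 14 were past 4-fold, against 0 of the higher. The median difference over all genes was 0.02, with 1% of genes below -1.07 and 1% above 0.67. Below 0 lay 47.4% of all genes and above it 52.5%, which is the background for the counts of list members below. In the control array the lower genes had a median level of 8.25, the higher genes 6.62 and all genes 7.71. The control value is 1 side of the difference that chose these genes, so this order follows in part from the choice. The share of genes at least 2-fold lower was largest among genes with a mean of 7 to 8 over both NCI-H727 arrays, at 2.23%, and 0 of the 1231 genes above 11 were past 2-fold. The DAXX-KD value of 19 lower genes lay under the filter level. No fold is given for a gene with an NCI-H727 value there.

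**Figure D1:**
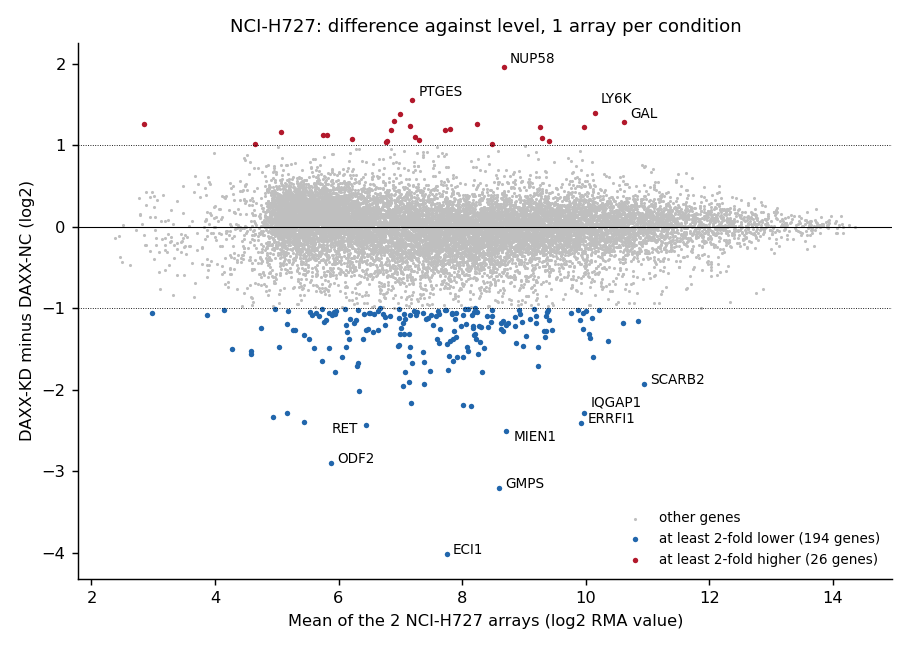
Difference between the DAXX-KD and DAXX-NC arrays of NCI-H727 (log2, vertical axis) against the mean of both arrays (log2 RMA value, horizontal axis); 1 point is 1 gene and dotted lines mark 2-fold. The 194 lower genes (blue) reach further from 0 than the 26 higher genes (red), with ECI1 at -4.02 and NUP58 at 1.96.

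The lower genes with most accord within these arrays were those whose probe sets, which bind different stretches of a transcript, all differed by at least 2-fold. GMPS, IQGAP1 and ST8SIA4 had 3 such probe sets each and, among genes with 3, the largest differences. GMPS, the synthase of the nucleotide GMP, stood at 10.20, 8.18 and 6.41 in the control array and at 7.00, 5.60 and 5.35 in the DAXX-KD array. IQGAP1, a scaffold that joins actin, calmodulin and small GTPases, went from 11.12, 11.32 and 9.84 to 8.83, 8.94 and 7.24. ST8SIA4, which builds polysialic acid on the adhesion molecule NCAM1, went from 6.10, 5.94 and 6.23 to 3.77, 3.72 and 4.46, all 3 DAXX-KD values under the filter level. By the probe set that represents the gene GMPS was 9.19-fold lower and IQGAP1 4.89-fold. NUP58, a nucleoporin of the central channel of the nuclear pore, had the largest difference in the other direction, from 7.70 to 9.65, or 3.89-fold higher. Its 3 other probe sets differed by -0.04, 0.24 and 0.32, so the higher value was seen by 1 of its 4 probe sets.

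The 250 bases before the start of these 4 genes are shown because the first 3 are the genes of largest difference with 3 probe sets in accord and NUP58 is the highest gene of the comparison. They are RefSeq promoters of assembly GRCh38.p14, read 5′ to 3′ on the strand of the gene, at chr3:155870400-155870649 (GMPS, plus strand), chr15:90387992-90388241 (IQGAP1, plus strand), chr5:100903283-100903532 (ST8SIA4, minus strand) and chr13:25301375-25301624 (NUP58, plus strand). Capitals mark matches, on either strand, to the GC box with the letters GGGCGG, to the box that is named by its letters CCAAT, and to the TATA box with the letters TATAAA.
GMPS: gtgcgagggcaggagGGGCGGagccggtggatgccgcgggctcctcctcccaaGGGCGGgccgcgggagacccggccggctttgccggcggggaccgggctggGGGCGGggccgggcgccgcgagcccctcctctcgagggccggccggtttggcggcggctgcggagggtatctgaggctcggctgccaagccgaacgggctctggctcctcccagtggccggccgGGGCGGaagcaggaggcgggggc
IQGAP1: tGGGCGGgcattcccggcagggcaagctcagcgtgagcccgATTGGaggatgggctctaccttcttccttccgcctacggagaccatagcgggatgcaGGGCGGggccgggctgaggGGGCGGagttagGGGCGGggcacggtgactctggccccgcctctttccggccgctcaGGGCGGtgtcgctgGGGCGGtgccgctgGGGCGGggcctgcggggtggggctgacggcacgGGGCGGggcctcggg
ST8SIA4: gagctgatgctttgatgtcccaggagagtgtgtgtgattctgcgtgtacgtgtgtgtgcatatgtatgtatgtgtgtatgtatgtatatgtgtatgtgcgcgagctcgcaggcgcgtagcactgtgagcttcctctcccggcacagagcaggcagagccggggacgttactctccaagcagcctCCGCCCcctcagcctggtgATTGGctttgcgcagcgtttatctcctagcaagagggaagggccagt
NUP58: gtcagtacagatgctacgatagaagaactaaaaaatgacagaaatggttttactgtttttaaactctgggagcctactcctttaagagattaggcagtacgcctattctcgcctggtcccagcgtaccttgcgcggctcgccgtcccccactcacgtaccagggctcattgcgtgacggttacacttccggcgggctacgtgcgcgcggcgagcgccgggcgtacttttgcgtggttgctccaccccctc
The GMPS window had 4 GC boxes and a GC content of 79.6%. IQGAP1 had 8 GC boxes, 1 CCAAT box and 74.4% GC. ST8SIA4 had 1 GC box, 1 CCAAT box and 55.6% GC, and NUP58 had 0 matches to the 3 motifs at the same GC content. These matches describe letters in a window. The share of all promoters that hold each motif is given with the promoters of the lower genes below.

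Mitochondrial fatty acid and branched amino acid breakdown held the gene with the largest difference of the comparison. ECI1, an isomerase that prepares unsaturated fatty acids for oxidation, stood at 9.76 and 5.75, 16.2-fold lower, on a single probe set. ACADSB, an acyl-CoA dehydrogenase of isoleucine breakdown, went from 7.33 to 5.32, 4.04-fold lower, while its other probe set differed by 0.14. Both were lower in QGP1 as well, by -1.71 and -1.04. They were the 2 of 40 measured members past 1.5-fold (all genes: 6.57%). The list median was -0.11, with 32 members below 0 and 8 above. In the mitochondrial ribosome list 1 gene stood apart from the rest. MRPL45, a protein of its large subunit, stood at 9.25 and 7.05, 4.59-fold lower, yet 64 of 77 members were above 0 and the median was 0.11. METTL15, an enzyme outside that list that methylates mitochondrial ribosomal RNA, stood at 8.02 and 6.07, 3.88-fold lower, with other probe sets at -0.38 and 0.23. Of 50 respiratory chain genes 0 were past 1.5-fold (all genes: 6.57%), with a median of 0.03. VDAC1, LACTB and LACTB2 are outside these lists too. VDAC1, the main pore of the outer mitochondrial membrane, was 2.24-fold lower (11.44 to 10.28) with its other probe set at -1.33. The mitochondrial proteins LACTB (9.29 to 8.02) and LACTB2 (10.66 to 9.54), the latter a ribonuclease, were lower at each of their probe sets past the filter.

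Nucleotide synthesis held 3 genes at least 2-fold lower of 36 measured (all genes: 1.33%). Beside GMPS these were CAD, which carries out the opening steps of pyrimidine synthesis, at 8.29 and 6.91 (2.60-fold), and RRM2B, the ribonucleotide reductase subunit induced by p53, at 8.48 and 7.04 (2.72-fold). The whole list had 18 members below 0, 18 above and a median of 0.01. The lysosome list had a median of -0.02. In it SCARB2, the receptor that carries glucocerebrosidase to lysosomes, stood at 11.90 and 9.98, 3.79-fold lower, and its other probe sets differed by -2.16, -1.04 and -0.10. SLC17A5, the sialic acid exporter of lysosomes, stood at 9.05 and 7.88 (2.24-fold), with its other probe set at -0.94.

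Receptor tyrosine kinases and their adaptors included 2 of the lowest genes. RET, the receptor of the GDNF family, stood at 7.66 and 5.23, 5.38-fold lower by 1 probe set, while its other 2 went from 6.51 to 6.41 and from 5.87 to 5.94. ERRFI1, which restrains the EGF receptor, went from 11.13 to 8.73, 5.30-fold lower, on a single probe set. Among the 34 members 5 were at least 1.5-fold lower and 1 higher (all genes: 4.96% and 1.61%), and the median was -0.08. EPHA7, an ephrin receptor outside that list, was lower at all 3 of its probe sets, from 9.03 to 7.47, 6.99 to 5.78 and 6.76 to 4.76. Among ligands of the EGF family epiregulin (EREG) stood at 10.58 and 11.31 (1.66-fold higher), and 6 of 8 members were above 0 (all genes: 52.5%) with a median of 0.16. Of 22 feedback genes and targets of the ERK pathway 16 were above 0 with a median of 0.14, DUSP5, an ERK phosphatase, being 1.54-fold higher (10.01 to 10.63). Immediate early factors had 7 of 25 members at least 1.5-fold lower (all genes: 4.96%) and 0 higher (all genes: 1.61%), although the list median was 0.07. FOS stood at 9.07 and 8.23 (1.80-fold lower), and EGR1 at 9.84 and 9.21 (1.55-fold), with the other probe sets lower as well, 1 of them by -0.97.

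Cytoskeletal and matrix genes lay on both sides. MYH9, a heavy chain of nonmuscle myosin, stood at 9.10 and 7.61 (2.80-fold lower). FRMD5, a FERM domain protein, went from 6.64 to 4.25, the latter under the filter level, with its other probe set at -0.26. CFL2, an actin-severing cofilin, went from 9.37 to 10.59, 2.34-fold higher, with other probe sets at 0.52 and 1.15. Among 23 genes of basement membrane and matrix glycoproteins, MATN2, a matrix adaptor, stood at 8.25 and 6.09 (4.47-fold lower) and FREM2, a basement membrane protein, at 7.16 and 5.48 (3.19-fold lower). THBS1, thrombospondin, went from 7.62 to 8.88, 2.39-fold higher, with other probe sets at 0.17, 0.35 and 0.75. VWDE, the other member past 2-fold, lay under the filter level on both arrays, at 2.22 and 3.48. Of the mesenchymal switch genes VIM, vimentin, stood at 6.37 and 7.32 (1.93-fold higher) and TGFB2, a transforming growth factor, at 5.73 and 6.64 (1.87-fold higher). FN1, fibronectin, went from 8.52 to 7.72, 1.74-fold lower, with other probe sets from -0.88 to -0.08. That list counted 3 genes at least 1.5-fold lower and 2 higher of 17 (all genes: 4.96% and 1.61%). Of 26 genes of epithelial adhesion 1 was past 1.5-fold (all genes: 6.57%), DSP, desmoplakin, at 12.43 and 11.84.

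Genes of monoamine synthesis and storage had the lowest median of all 56 lists, -0.29, with 7 of 8 members below 0. SLC18A1, which loads monoamines into vesicles, stood at 8.85 and 7.52 (2.52-fold lower). MAOA, which breaks monoamines down, stood at 8.37 and 7.61 (1.70-fold lower, other probe sets -0.32 and -0.26). DDC, which makes serotonin and dopamine, stood at 11.41 and 10.83 (other probe set -0.26). In QGP1 the median of this list was -0.34. Of 32 genes of granins, prohormone processing and vesicle exocytosis 7 were at least 1.5-fold lower and 0 higher (all genes: 4.96% and 1.61%). SV2B, a synaptic vesicle protein, went from 6.34 to 4.86 (2.80-fold lower), with other probe sets at -0.21 and 0.03. CADPS and CADPS2, which prime dense-core vesicles, went from 8.76 to 7.71 (2.06-fold) and from 10.56 to 9.60 (1.94-fold). The other probe sets of CADPS differed by -0.85 and -0.24. RAB27B, a vesicle GTPase, went from 9.60 to 8.63 (1.95-fold), with other probe sets at -0.84 and -0.01. The list median was -0.06. The 9 pan-neuroendocrine markers had a median of -0.01 with 0 past 2-fold (all genes: 1.33% lower and 0.178% higher).

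Neuropeptides lay on both sides. ADCYAP1, the peptide PACAP, was lower at both probe sets, from 9.97 to 8.70 and from 9.08 to 7.20. In QGP1 these probe sets stood at 3.28 and 3.07 and at 3.80 and 4.92, so 1 of the 4 values there reached the filter level. GRP went to a value under the filter level, as given above. GAL, galanin, stood at 9.99 and 11.27 (2.43-fold higher). STC1, the hormone stanniocalcin, stood at 6.98 and 7.89 (1.89-fold higher, other probe sets 0.15 and 0.38). The median over 21 members was -0.04. Neuronal cytoskeleton and RNA-binding genes included MAP2, a microtubule protein of dendrites, at 8.85 and 7.33 (2.87-fold lower, other probe set -0.59), and NOVA1, a splicing regulator of neurons, at 7.08 and 5.70 (2.59-fold lower, other probe set 0.01). ELAVL2, a neuronal RNA-binding protein, was the higher member, at 8.64 and 9.87 (2.34-fold), with its other probe set at 0.77.

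The description field names the cells by the activity of aldehyde dehydrogenases. Of 17 such genes 3 were at least 1.5-fold lower and 0 higher (all genes: 4.96% and 1.61%), with a median of -0.10. ALDH1A3, a retinaldehyde dehydrogenase, stood at 8.37 and 6.59 (3.42-fold lower) and ALDH1A1 at 11.11 and 10.42 (1.61-fold). ALDH9A1 stood at 10.30 in the DAXX-KD array and was 1.63-fold lower. Their differences in QGP1 were -0.06, -0.15 and -0.31. In the Notch list 2 of 31 members were at least 2-fold lower (all genes: 1.33%). DNER, a neuronal Notch ligand, stood at 8.13 and 6.60 (2.90-fold), and DLL3, an inhibitory ligand of neuroendocrine cells, at 7.63 and 6.44 (2.27-fold), with its other probe sets from -0.21 to 0.25. HES6, a Notch pathway factor of neural cells, stood at 9.96 in the control array and was 1.94-fold lower. The list median was -0.00.

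Of 23 replication-dependent histone genes 5 were at least 1.5-fold lower and 0 higher (all genes: 4.96% and 1.61%). H2AC6 stood at 7.70 and 6.26 (2.73-fold lower) and H2BC12 at 11.06 and 9.66 (2.63-fold). Histone genes are so alike that a probe set can read several of them, so these values are uncertain as to the gene. Of 377 zinc finger ZNF genes 260 were below 0 (all genes: 47.4%), 25 at least 1.5-fold lower (all genes: 4.96%) and 3 higher (all genes: 1.61%), with a median of -0.10 against 0.02 in QGP1. ZNF678 was lower at all 3 probe sets, by -1.09, -1.53 and -2.08. XRN1, the exonuclease that degrades decapped RNA, stood at 8.35 and 6.43 (3.80-fold lower, other probe set -1.03), TAF5, a subunit of the general transcription factor TFIID, at 8.87 and 7.55 (2.50-fold, other probe set -1.33), and DDX21, a nucleolar RNA helicase, at 11.19 and 10.01 (2.26-fold, other probe set -1.17). Long noncoding RNAs of the nucleus were lower at many probe sets. MIAT stood at 7.58 in the DAXX-KD array (2.67-fold lower) and was lower at all 4 probe sets, with the others at -1.40, -1.13 and -0.29. MALAT1 went from 12.33 to 11.73, and its 11 other probe sets lay between -0.94 and -0.29. Of the 15 long noncoding RNAs of that list 12 were below 0. Intergenic LINC RNAs, in contrast, had 167 of 244 members above 0 and a median of 0.12.

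Centriole and centriolar appendage genes had a median of -0.23, with 24 of 29 members below 0 (all genes: 47.4%) and 5 above. ODF2, a protein of the mother centriole's appendages, went from 7.32 to 4.42, under the filter level, and its other probe set from 6.64 to 5.32. SCLT1 and CEP164, also of these appendages, differed by -0.77 and -0.60, the former with other probe sets at 0.30 and 0.61. RFX3 and KIF3B are outside that list and were named because all their probe sets passed 2-fold. RFX3, a transcription factor of cilium genes, went from 6.09 to 4.77, the latter under the filter level, with its other probe set at -1.48. KIF3B, a motor of transport along cilia, stood at 10.49 and 9.44 (2.08-fold lower, other probe set -1.05).

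The 2-fold counts of the stress lists in NCI-H727 are to be read beside the shares of all genes, 1.33% lower and 0.178% higher. Of 43 ATF4 targets of the amino acid response 0 were past 2-fold and 29 were below 0, with a median of -0.15. XPOT, the tRNA exporter, stood at 11.65 and 10.71 (1.91-fold lower, other probe set -1.87), and DDIT3, the stress factor CHOP, at 8.98 and 8.08 (1.87-fold lower). Of 43 endoplasmic reticulum chaperones and degradation genes 36 were below 0 (all genes: 47.4%), 4 at least 1.5-fold lower (all genes: 4.96%) and 0 higher, with a median of -0.18. XBP1, a transcription factor of that response, stood at 10.82 and 10.03 (1.72-fold lower). With the mean over all its probe sets, those under the filter level included, it differed by -0.13. Of 27 p53 targets RRM2B, given above, was the 1 past 2-fold, on the lower side. PMAIP1, the cell death gene NOXA, stood at 9.45 and 10.38 (1.91-fold higher, other probe set 1.38), and GDF15, a secreted stress cytokine, at 11.42 and 12.02 (1.51-fold higher, other probe sets 0.13 and 0.32). The heat shock list had a median of -0.09 and DNAJB4, a co-chaperone, at 7.08 and 5.81 (2.41-fold lower, other probe set -0.44). Of 34 interferon response genes 1 was past 2-fold, GBP1, an interferon-induced GTPase, at 8.96 and 7.87 (2.13-fold lower), with other probe sets at -1.14 and -0.54.

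Lipid genes had 4 of 28 members at least 1.5-fold lower and 0 higher (all genes: 4.96% and 1.61%), with a median of -0.06. FABP5, a fatty acid carrier, stood at 13.16 and 12.35 (1.76-fold lower) and LPIN1, a phosphatidate phosphatase, at 10.58 and 9.90 (1.60-fold lower, other probe sets -0.28 and -0.67). Of 60 Rab GTPases and endoplasmic reticulum to Golgi transport genes 4 were at least 1.5-fold lower and 2 higher (all genes: 4.96% and 1.61%). RAB28, a small GTPase, stood at 9.74 and 8.65 (2.14-fold lower), with other probe sets at -0.98, -0.69 and 0.53. The vesicle coat subunits SEC24B and SEC23A lay on opposite sides. SEC24B stood at 9.32 and 8.57 and SEC23A at 9.54 and 10.35 (other probe set 0.39). Of 263 solute carriers 4 were at least 2-fold lower and 1 higher (all genes: 1.33% and 0.178%), and 154 were above 0 with a median of 0.06. SLC44A5, a choline transporter-like protein, stood at 7.93 and 6.34 with other probe sets at -1.34 and -0.60, and SLC39A7, a zinc transporter of the endoplasmic reticulum, at 9.55 and 8.38 (2.25-fold lower). Of 15 prostaglandin E2 genes PTGS2, the inducible cyclooxygenase, stood at 5.80 and 5.05 (1.68-fold lower, other probe set -0.19), opposite to PTGES. Of 33 hypoxia and glycolysis genes 2 were at least 1.5-fold lower (all genes: 4.96%). HK2, a hexokinase, stood at 8.86 and 8.19 with its other probe sets at -0.52 and -0.32. The glucose transporter SLC2A3 went from 4.92 to 3.95, under the filter level, with other probe sets at 0.18 and 0.32. Of 55 splicing factors 2 were at least 1.5-fold higher (all genes: 1.61%), QKI and SNRNP200, a spliceosome helicase, at 7.85 and 8.68 (1.78-fold).

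Several lists had few or no members past these sizes. Among 52 proliferation genes 0 were past 1.5-fold (all genes: 6.57%) and the median was -0.06. Among 59 cytosolic ribosomal proteins 0 were past 1.5-fold, with a median of 0.03, as among 25 housekeeping genes. Of the 30 nuclear pore genes NUP58 was the 1 past 2-fold, and NDC1, a membrane nucleoporin, stood at 11.25 and 10.31 (1.92-fold lower, other probe set 0.01). Of 43 translation factors 29 were above 0 with a median of 0.11, and EIF5A2 was the 1 past 1.5-fold. Chemokines and NF-kB targets had 20 of 25 members above 0 and a median of 0.15. The markers of fibroblasts and endothelium measured past the filter (6 of 10) and of leukocytes (5 of 8) had 0 past 2-fold. Over all genes 1.33% were 2-fold lower and 0.178% higher, so lists this short would seldom hold one. Under the other settings of probe set, filter and scaling the medians of monoamine genes (-0.45 to -0.20), centriole genes (-0.24 to -0.14), endoplasmic reticulum genes (-0.20 to -0.08), the mitochondrial ribosome (0.09 to 0.20) and LINC RNAs (0.06 to 0.22) kept their sign. Of all 56 medians 28 took both signs, among them those of receptor tyrosine kinases, granins and exocytosis, neuropeptides, Notch, proliferation and translation factors, the last from -0.03 to 0.20.

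**Figure D2:**
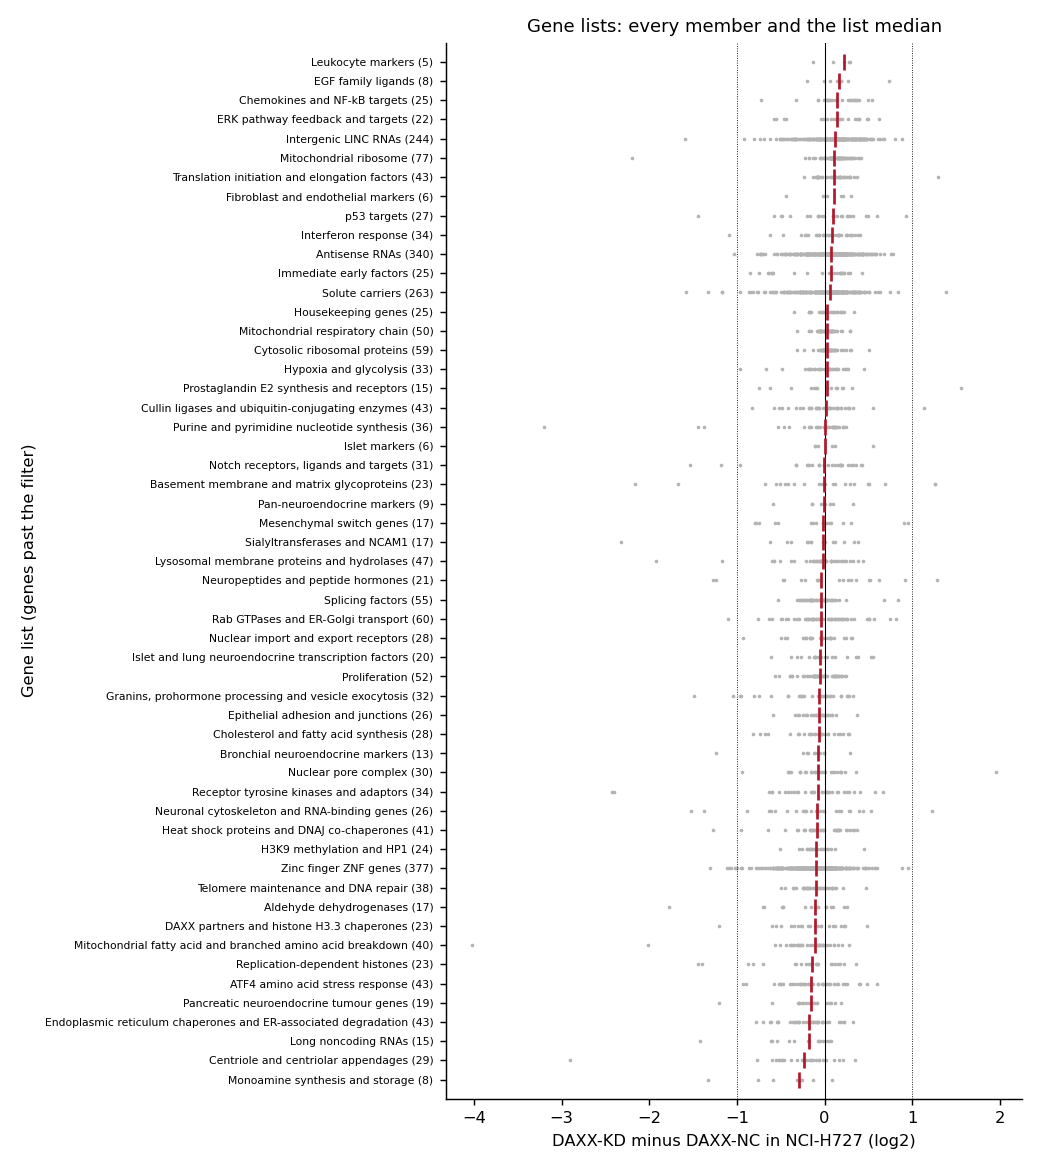
Difference between the DAXX-KD and DAXX-NC arrays of NCI-H727 (log2) for every member past the filter (grey points) of gene lists with at least 5 such members, with the list median (red bar); the number of members is in parentheses and dotted lines mark 2-fold. The lowest median is that of monoamine synthesis and storage (-0.29), and single members such as ECI1, GMPS and ODF2 lie far from medians near 0.

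The genes of the higher side differed by less. Of the 14 with other probe sets past the filter, 12 had all of them above 0 and 1 had all past 2-fold. LY6K, a membrane-anchored surface protein, stood at 9.45 and 10.85 (2.63-fold higher), PTGES, which makes prostaglandin E2, at 6.41 and 7.97 (2.94-fold) and EIF5A2, a translation factor, at 6.25 and 7.54 (2.45-fold). The other probe sets of EIF5A2 differed by 0.61 and 1.33, and that of PTGES went from 6.29 to 6.41. HAS2, a hyaluronan synthase, was the 1 higher gene with all probe sets past 2-fold, from 6.26 to 7.44 and from 5.82 to 8.06. OTUB2, a deubiquitinase, stood at 7.13 and 8.32 (2.28-fold, other probe sets 0.40 and 1.26), and IL15RA, the receptor of interleukin 15, at 7.21 and 8.41 (2.30-fold). UBE2L6, the conjugating enzyme of the ubiquitin-like ISG15, went from 5.18 to 6.31 (2.19-fold), and RND2 from 4.49, under the filter level, to 5.65. SLC67A2 stood at 6.31 and 7.69 (2.61-fold, other probe sets 0.10 and 0.50) and TMEM71 at 6.55 and 7.78 (2.35-fold). Below 2-fold, QKI, an RNA-binding splicing regulator, was higher at all 4 probe sets, by 0.63, 0.66, 0.68 and 0.75.

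**Figure D3:**
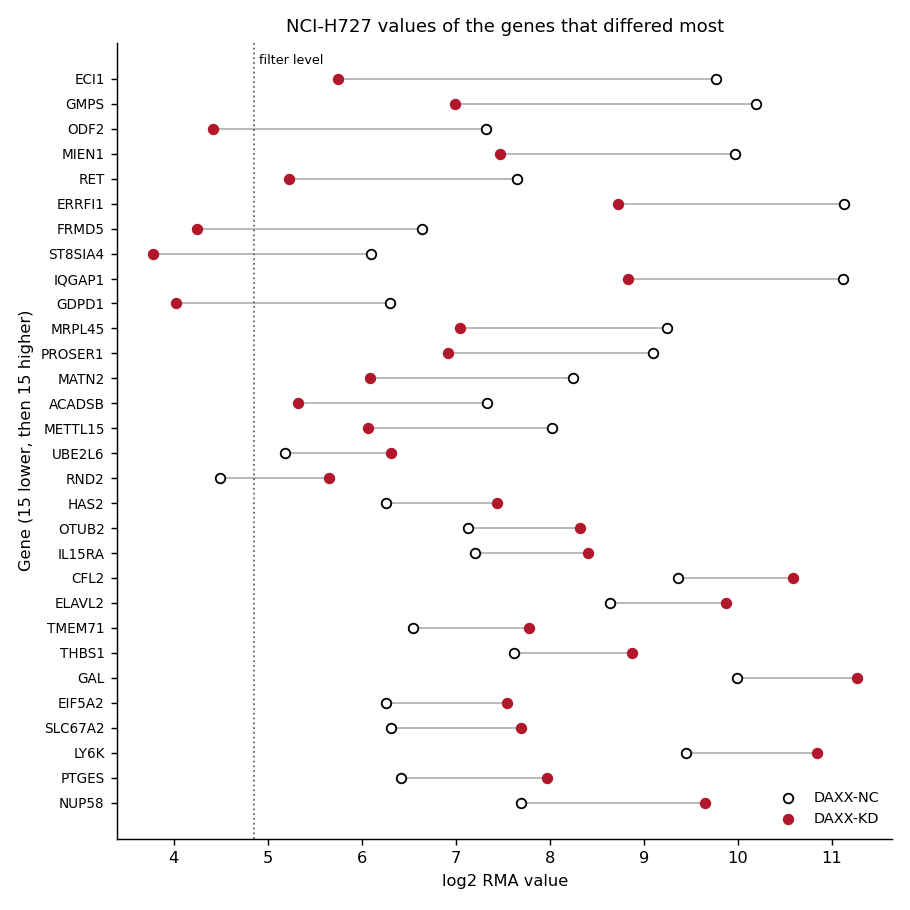
log2 RMA values of the 15 lowest and 15 highest genes of NCI-H727, among genes with at least 1 of both arrays at the filter level (VWDE is left out so), in the DAXX-NC array (open circles) and the DAXX-KD array (filled circles), 1 array each; the dotted line is the filter level of 4.85. The DAXX-KD values of ODF2, FRMD5, ST8SIA4 and GDPD1 and the DAXX-NC value of RND2 lie below that line.

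Probe sets of the same gene often disagreed. Over the 7159 genes with more than 1 probe set past the filter, the SD of the difference between probe sets of a gene was 0.275 in NCI-H727 and 0.202 in QGP1. This spread lies within a pair of arrays and says nothing of the error of a repeated culture or array. Of the 194 lower genes 87 had a single probe set past the filter, ECI1, MIEN1, ERRFI1, MRPL45 and MATN2 among them. MIEN1, a small lipid-anchored protein, stood at 9.97 and 7.47 (5.67-fold lower). The other 107 had 198 further probe sets with a median difference of -0.60. All of them were below 0 for 77 genes, all at least 1.5-fold lower for 45 genes and all at least 2-fold lower for 28, while for 34 genes none reached 1.5-fold and 30 genes had a probe set above 0. GDPD1, a lysophospholipase, went from 6.30 to 4.02, the latter under the filter level, with its other probe set at -0.12. For the 14 higher genes with several probe sets the median of the 26 others was 0.49. All of them were above 0 for 12 genes, all at least 1.5-fold higher for 3 and all past 2-fold for 1, while for 6 none reached 1.5-fold.

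The 28 lower genes in full accord ranged over many roles. Those not yet named include PROSER1 at 9.10 and 6.91 (4.57-fold, other probe set -1.41), RCHY1, a ubiquitin ligase of p53, at 9.73 and 8.26 (2.77-fold, others -1.59 and -1.69), and VPS13C, a lipid transfer protein, at 9.58 and 8.16 (2.67-fold, other -1.10). FLVCR1, a choline and haem transporter, stood at 10.72 and 9.40 (2.48-fold, other -1.45), DACH1, a developmental transcription factor, at 6.79 and 5.50 (2.45-fold, others -1.06 and -1.68), and NUCB2, the precursor of the peptide nesfatin, at 9.91 and 8.81 (2.14-fold, other -1.08). UBE3C, a ubiquitin ligase, stood at 9.90 and 8.85 (2.07-fold, other -1.30) and AP1M2, a clathrin adaptor subunit of epithelia, at 8.12 and 7.09 (2.04-fold, other -1.14). The remaining members, BSDC1, FAM114A1, GPBP1, TMEM144 and TMEM87B, were 2.03-fold to 2.42-fold lower. In QGP1 26 of the 28 were below 0, with a median of -0.52.

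**Figure D4:**
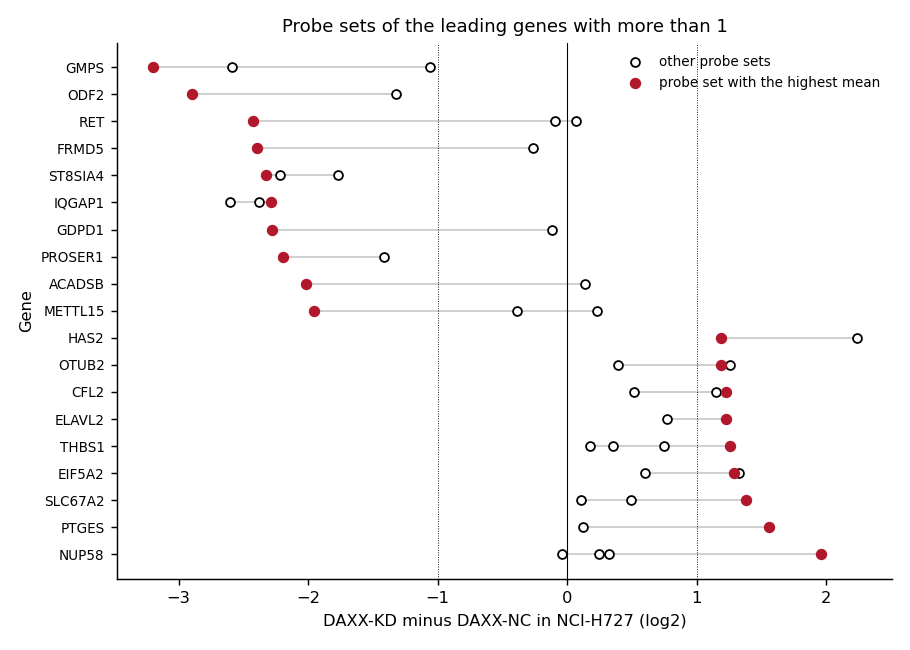
Difference between the DAXX-KD and DAXX-NC arrays of NCI-H727 (log2) at each probe set past the filter of the leading genes that have more than 1, with the probe set that represents the gene filled and the others open; dotted lines mark 2-fold. All probe sets of GMPS, ODF2, ST8SIA4, IQGAP1, PROSER1 and HAS2 lie past 2-fold, and those of RET, ACADSB, METTL15 and NUP58 lie on both sides of 0.

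The NCI-H727 differences were set beside those of QGP1, whose arrays are separate for both treatments. In QGP1 34 genes (0.232%) were past 2-fold on the lower side and 38 (0.260%) on the higher side, so 47.2% of its genes past 2-fold were lower against 88.2% in NCI-H727. Of the 194 genes lower in NCI-H727, 163 (84.0%) were below 0 in QGP1, where 46.2% of all genes were, and their median there was -0.39. Of these genes 64 (33.0%) were at least 1.5-fold lower in QGP1 (all genes: 1.33%) and 19 at least 2-fold lower, which is 9.79% of the NCI-H727 genes and 55.9% of the QGP1 genes. The NCI-H727 difference lay further below 0 than that of QGP1 for 187 of the 194, which follows in large part from their choice by NCI-H727. Without the 12 genes that lay under the filter level on both QGP1 arrays, 158 of 182 were below 0. The higher genes matched less. Of 26, 15 (57.7%) were above 0 in QGP1, where 53.5% of all genes were, with a median of 0.10, and NUP58 was the 1 gene past 2-fold in both. With 1 array per treatment the difference between the lines could not be tested.

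Of the 19 genes at least 2-fold lower in both lines 7 differed more in QGP1, DAXX, FREM2 and H2BC12 among them. PCP4, a calmodulin-binding peptide, stood at 6.72 and 5.51 in NCI-H727 (2.31-fold) and differed by -1.47 in QGP1. H2BC12L, a histone gene, went from 9.04 to 7.81 and differed by -1.72. TENT5C, a poly(A) polymerase, went from 6.46 to 5.41 (other probe set -0.34) and differed by -1.19 in QGP1. URB2, of ribosome assembly, went from 8.24 to 7.22 and differed by -1.21 in QGP1. NAPB, a protein of vesicle fusion, stood at 8.79 and 7.56 in NCI-H727 (2.33-fold) and differed by -1.18 in QGP1. ATP9B, a P-type ATPase, went from 8.67 to 7.47 and differed by -1.02 in QGP1, with its other NCI-H727 probe sets from -0.61 to 0.12. Other lower genes of NCI-H727 lay near 0 in QGP1. Beside ALDH1A3 these included LACTB (-0.14), DACH1 (-0.04), MAP2 (-0.16) and TMEM144 (0.02).

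**Figure D5:**
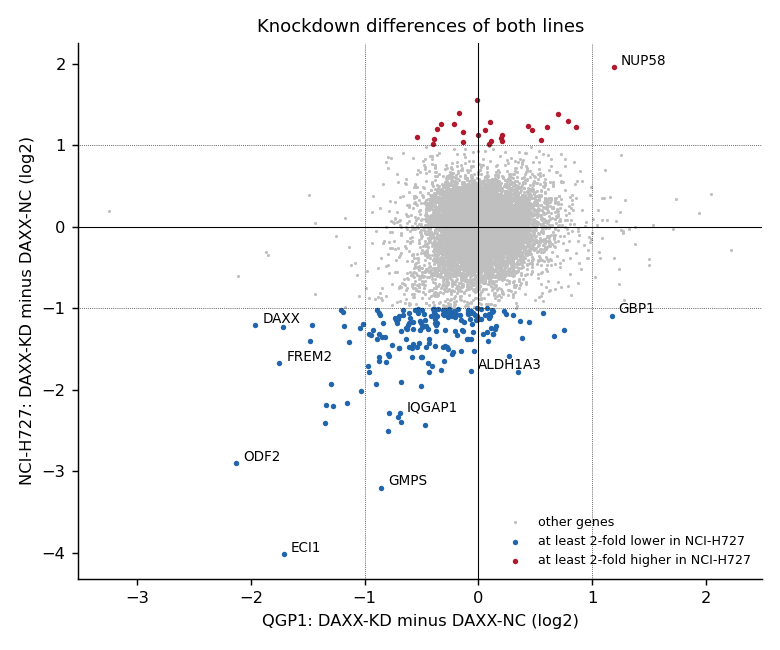
DAXX-KD minus DAXX-NC (log2) in NCI-H727 (vertical axis) against QGP1 (horizontal axis); 1 point is 1 gene, colours mark genes at least 2-fold lower (blue) or higher (red) in NCI-H727, and dotted lines mark 2-fold. Of the 194 blue points 163 lie left of 0, and NUP58 is the red point past 2-fold in both lines.

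The lower genes had a larger median length than other genes. The genomic span from start to end of the gene in RefSeq, introns included, had a median of 56.7 kb over the 194 lower genes, 22.4 kb over the 26 higher genes and 27.3 kb over the 14620 genes with a span. The median was 53.3 kb over the 726 genes at least 1.5-fold lower and 27.7 kb over the 235 higher. Sorted by span into 5 bins of equal size from shortest to longest, the genes at least 2-fold lower numbered 20, 15, 37, 48 and 74, or 0.684% of the shortest bin and 2.53% of the longest. The median difference over all genes of a bin ran from 0.08 in the shortest through 0.05, 0.02 and -0.03 to -0.08 in the longest. In QGP1 the counts were 7, 8, 8, 5 and 6, with medians from -0.00 to 0.04. The bins differed in level too, with medians of 6.78, 7.43, 7.89, 8.12 and 7.84, and the part of level in this pattern was not tested.

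The promoters of the lower genes were set beside those of other genes by their letters. Of the 194 lower genes 167 had an entry in the RefSeq promoter table, of the 26 higher genes 18, and of all genes past the filter 11692. Over the 250 bases before the start the median GC content was 66.0% for lower genes, 60.8% for higher genes and 64.4% for all. GGGCGG was found on either strand in 69.5% of lower, 66.7% of higher and 63.4% of all promoters, CCAAT in 37.7%, 44.4% and 34.4%, and TATAAA in 7.19%, 16.7% and 6.38%. The ETS core CGGAAG was in 17.4%, 22.2% and 25.3%. The cAMP response element TGACGTCA was in 1.80% of lower and 2.69% of all promoters, and the AP-1 site TGACTCA in 1.20% and 2.81%, with 0 of 18 higher genes for either. Matches to different motifs were counted apart, whether or not they overlapped.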

How the data were processed

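The deposited table holds log2 expression values of 54613 probe sets on 4 arrays. Per the submitters' processing notes the authors used RMA from affy 1.40.0 under R 3.0.3. The platform's annotation gave 41091 probe sets a single symbol and 1801 several, and 11721 are not listed in it. The first kind was used. 41037 were found in RefSeq GRCh38.p14 by Entrez identifier, and 0 symbols changed. This gave 19741 genes, of which 14637 passed the filter (mean over the 4 arrays at or above the 40th percentile). Differences, counts at 2-fold and 1.5-fold, list medians, gene spans and motif matches were computed in Python 3.11.15 with numpy 2.4.6, pandas 2.3.3 and scipy 1.17.1. Figures are from matplotlib 3.10.9. Of these steps the differences and the counts at 2-fold were tested on simulated data. The planted changes were larger than 2-fold, in genes well above the filter level, and the added noise was small. Calls near 2-fold or near that level were not covered, so this checks the code and not the calls in these data. RMA makes the arrays' distributions alike, so a shift shared by most genes would be removed, and differences of dim genes are compressed.

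With 1 array per treatment no test was made. Nothing in the labels says that arrays came from repeated cultures. RNA is said to come from tissue specimens in the protocol, although the samples are cell lines. Genes to name were DAXX; the 15 lowest and 15 highest genes with at least 1 NCI-H727 array at the filter level; genes whose probe sets all passed 2-fold; the leading members of 56 gene lists; and genes past 2-fold in both lines. Of these 156 genes the text names the greater part. Cell type markers were named to check the line. The counts and median of 1 list are not reported here. The genes, lists and rules were chosen with earlier results of these data known. Other choices of probe set, filter, centring and normalization were tried.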

Additional observations from a re-analysis of the deposited data

Results flagged for a closer look

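By the probe set that represents the gene DDIT3, CXCL2 and GBP1 were past 1.5-fold in opposite directions in the lines. DDIT3, the stress factor CHOP, differed by -0.90 in NCI-H727 and by 1.28 in QGP1. CXCL2, a chemokine that attracts neutrophils, went from 7.02 to 6.29 in NCI-H727, a difference of -0.73, and differed by 0.79 in QGP1. GBP1 differed by -1.09 in NCI-H727 and by 1.17 in QGP1, the latter between 3.08 and 4.25, both under the filter level. Its 2 other probe sets, also under that level in QGP1, differed there by -0.34 and -0.52, the direction seen in NCI-H727. The medians of 2 gene lists had opposite signs in the lines with both at least 0.1 from 0. That of centriole and centriolar appendage genes was -0.23 in NCI-H727 and 0.12 in QGP1, and that of ATF4 targets was -0.15 and 0.34. None of these differences between the lines was tested, since each line has 1 array per treatment.

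Probe sets without a gene name were 2-fold lower about as often as named genes, of which 1.33% were lower and 0.178% higher. Of 4263 such probe sets past the filter 55 (1.29%) were at least 2-fold lower in the DAXX-KD array of NCI-H727 and 1 was at least 2-fold higher. The lowest went from 6.97 to 4.06, the latter under the filter level.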

How the results depend on the processing

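With 194 genes at least 2-fold lower and 26 higher as reported, averaging each gene's probe sets gave 109 and 10 (93 and 9 of them shared with the reported genes), and taking their median gave 152 and 12 (99 and 9 shared). Without x_at and s_at probe sets, which may bind several transcripts, there were 198 and 20, with no filter 207 and 28, and with a filter at the 60th percentile 173 and 18. With both NCI-H727 arrays at the filter level there were 180 and 23, after intensity-dependent centring 192 and 27, after median centring 135 and 38, and after another quantile normalization 165 and 33. Lower genes made up 78.0% to 92.7% of the genes past 2-fold over these settings. Of 1325 values of the genes chosen for naming 8 changed sign. That total includes the filter settings, which keep each gene's probe set and so could not change its value. Median centring moved all genes alike. With the mean over probe sets 66 of 149 values moved by at least 0.275, the SD given above, without a change of sign. With the median 57 of 146 did. The mean also takes in probe sets under the filter level, so genes with a single probe set past it could move. With it XBP1 stood at -0.13, ALDH1A3 at -0.72, CAD at -0.78, NAPB at -0.87, GAL at 0.81 and LY6K at 0.94. With the median over probe sets SAR1A, a GTPase of vesicle budding, stood at -0.6907 (0.75 as reported), ELOVL5, a fatty acid elongase, at 0.0971 (-0.74), ATP9B at 0.0515, DLL3 at 0.0258 and NOVA1 at 0.0066. Without x_at and s_at probe sets SAR1A stood at -0.6907 and NOVA1 at 0.0066, and with the mean SCLT1 stood at 0.0456. Of 503 list medians 47 changed sign, in 28 lists, of which translation factors were the 1 list past 0.1 as reported. No replicate could be left out and no interval can be given. No paired analysis was possible because each group has 1 array. The number of arrays limits the precision.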
